A study of Mus musculus with 15 samples.

Results

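Blueberry gold nanoparticles (BLU-A) were compared with plain blueberry extract (BLU) in 4T1 cells, a mouse mammary carcinoma line that grows as epithelium-derived cancer cells in culture. The 3 samples labelled as treated with blueberry nanoparticle and the 3 labelled as treated with blueberry were taken, 6 of the 15 labelled samples of the series. The other 9 were untreated cells and cells given blackberry extract (BLA) or its nanoparticle form (BLA-A). All cells carry the genotype label WT, and the extract and the nanoparticles were given at the same concentration, 200 µg/mL. The nanoparticles were made by mixing the extract with a gold salt (HAuCl4), so BLU-A differs from BLU by the gold and by the particle form at once. The study also washed the particles to remove phytochemicals not bound to them. The amount and make-up of extract compounds at the same concentration may therefore differ too, and these differences cannot be told apart. Particles without extract were not analysed here, and the time from treatment to harvest is not given in the sources used here.

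Blueberry extract is rich in anthocyanins and other polyphenols, which bind metals, scavenge radicals and reduce gold ions to particles. Cells take up particles of this kind mostly by endocytosis, and gold compounds and other metals are known inducers of metallothioneins and of the NRF2 antioxidant program. Dividing cells also make large amounts of histone mRNA during DNA replication, from clustered genes whose transcripts end in a conserved stem-loop rather than a poly(A) tail. These 3 groups of genes were followed through the comparison, along with other pathways. The lists were chosen with earlier results of these data known, so they are not predictions made in advance.

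The sources differ on what the 3 columns of a condition are. The labels list them as 3 samples with a batch date each, and the study's general statement on statistics speaks of biological replicates, whereas its sequencing report lists 1 sequenced sample per condition with 3 subsets of its reads. Within a condition the columns agreed more closely than separate draws of reads would, with a chi-square per degree of freedom from 0.0951 to 0.475 over the 5 conditions, so the sequencing report was followed and their mean was used as 1 library. Totals per column lay between 26849069 and 26850347 in BLU and between 25719967 and 25723142 in BLU-A. With 1 library per condition no p-value can be given. Every fold change below compares 2 libraries, and the intervals in brackets are 95% intervals that cover counting error only. The batch dates of BLU and BLU-A do not overlap, so batch and treatment cannot be told apart. The 10 markers of the 4T1 epithelial line summed to 2248 CPM in BLU and 2147 CPM in BLU-A, where CPM are counts scaled by library size and TMM factor. Among them Krt8 and Krt18 were at 196.4 and 457.6 CPM in BLU and at 211.9 and 525.8 CPM in BLU-A, while Cd44 was at 1255 and 1024 CPM and Cdh1 at 135.0 and 125.7 CPM. The basal keratin Krt5 was at 0 in both libraries, as was the myeloid gene Lyz2. The summed level of 8 leukocyte markers was 11.5 CPM in BLU and 9.63 CPM in BLU-A, of which the myeloid gene Cd68 gave 6.88 and 7.26 CPM. The 7 fibroblast markers summed to 88.2 and 94.1 CPM, of which Pdgfra gave 86.0 and 92.2 CPM. The 4 endothelial markers summed to 6.46 and 6.02 CPM and the 4 adipocyte markers to 0.218 and 0.666 CPM.

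The nanoparticle library lay close to the extract library at most genes. Of 17594 genes that reached 1 CPM in any of the 5 libraries, 508 were higher in BLU-A (2.89%) and 667 were lower (3.79%) by a log2 fold change over 1 on CPM plus 0.5. Together these are 1175 genes, or 6.68%. The median log2 fold change was -0.02 and the median size was 0.24. For 365 of the higher and 406 of the lower genes the whole counting interval lay beyond 1.

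Most of the genes past the threshold were weakly expressed. Of the 1175 genes, 1128 had a mean under 10 CPM over the 2 libraries, and 554 had a mean under 1 CPM. The share past the threshold was 23.6% under 1 CPM, 16.2% from 1 to 3 CPM, 5.14% from 3 to 10 CPM, 0.916% from 10 to 30 CPM, 0.312% from 30 to 100 CPM and 0.126% at or above 100 CPM. Among the 9715 genes with a mean of at least 10 CPM, 34 were higher (0.35%) and 13 were lower (0.134%), which makes 47 in all (0.484%). At this level the split therefore favoured the nanoparticle side, while over all genes lower genes were more numerous.

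**Figure D1:**
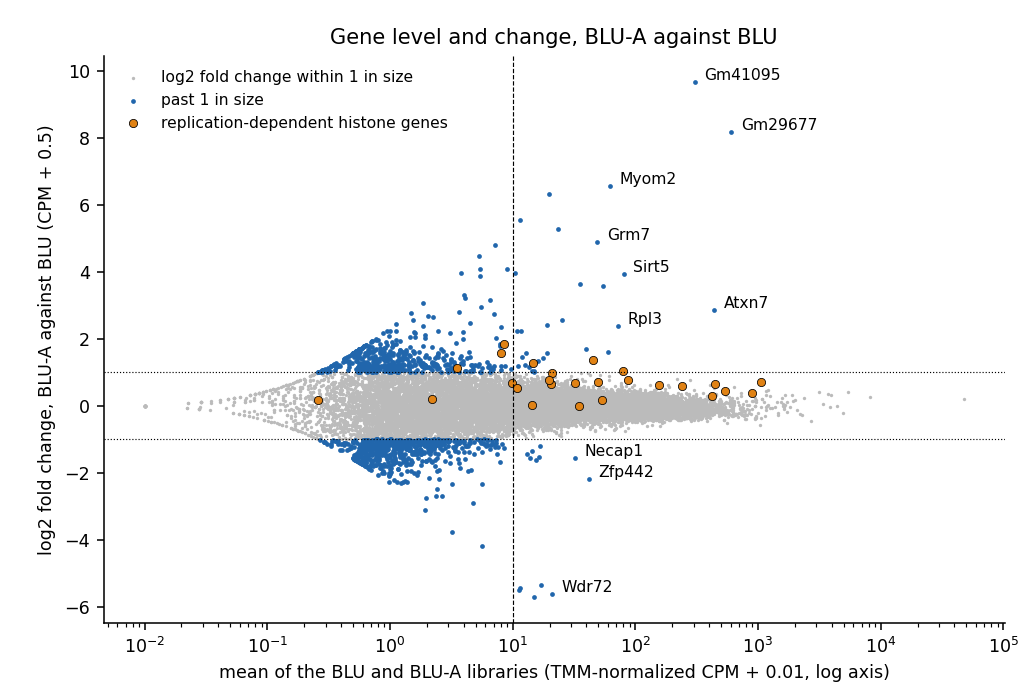
Log2 fold change of each gene in BLU-A against BLU (y axis, CPM plus 0.5) over its mean level in the 2 libraries (x axis, log scale). Points are genes, dotted lines mark a log2 fold change of 1 in size and the dashed line marks 10 CPM, to the right of which 34 genes lie above and 13 below the dotted lines.

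The genes with the largest increases were close to silent in BLU and high in BLU-A. They included 2 long noncoding RNA genes, a muscle gene and a brain receptor gene. Gm41095, a lncRNA gene on chromosome 14 (14022727 to 14090697 on GRCm39), was at 0.24 CPM in BLU and 609 CPM in BLU-A, 2520-fold higher (interval 1160 to 5960). It was between 0.36 and 1.44 CPM in the 3 other libraries. Gm29677, a lncRNA gene on chromosome 18, was at 3.67 CPM in BLU and 1203 CPM in BLU-A, 328-fold higher (270 to 403). In untreated, BLA and BLA-A cells it was at 6.89, 6.16 and 0.719 CPM, so the BLU-A library alone held a high level of both.

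Among protein-coding genes, Myom2, which encodes an M-band protein of the muscle sarcomere, was at 0.798 CPM in BLU and 123.8 CPM in BLU-A, 155-fold higher (102 to 248). Grm7, a metabotropic glutamate receptor gene of 922 kb on chromosome 6 (110622542 to 111544191), was at 2.71 and 95.02 CPM, 35.1-fold higher (27.7 to 44.5). Myom2 was at or under 1.20 CPM and Grm7 at or under 3.61 CPM in each other library. Dcaf12l2, an X-linked gene for a WD-repeat protein, had 0 counts in BLU and each other library and 39.8 CPM in BLU-A, at least 365-fold higher against a floor of 3 counts in BLU. Selenov, a selenoprotein gene on chromosome 7, had 0 counts in BLU and 22.9 CPM in BLU-A, at least 211-fold higher by the same floor. Neither gene exceeded 0.269 CPM in any library but BLU-A.

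Genes with a clear level in BLU also stood among the largest increases. Sirt5, the mitochondrial lysine desuccinylase, was at 9.47 CPM in BLU and 151.3 CPM in BLU-A, 16.0-fold higher (14.1 to 18.2). Slc25a18, a mitochondrial glutamate carrier, was at 8.01 and 100.9 CPM, 12.6-fold higher (11.0 to 14.5). Atxn7, a subunit of the SAGA histone acetyltransferase complex on chromosome 14 (8362441 to 8508505), was at 105.8 and 766.4 CPM, 7.25-fold higher (6.97 to 7.53). It was the most abundant of the 15 genes with the largest increases in BLU, and it lay between 64.3 and 106.1 CPM in the untreated, BLA and BLA-A libraries. Rpl3, a protein of the large ribosomal subunit, was at 22.7 and 120.8 CPM, 5.33-fold higher (4.89 to 5.82). Of the 60 listed cytosolic ribosomal protein genes, Rpl26 was the only other one past the threshold. Gm41095, Gm29677, Slc25a18, Atxn7 and Rpl3 each overlap another annotated gene that was also compared. The rest of the 15, Gm29571, Gm33292, Gm40271, Spag16 and Zfyve28, were 5.77 to 65.4-fold higher and highest in BLU-A of the 5 libraries.

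The largest decreases had the mirror pattern, with a high level in BLU alone. Wdr72, a gene needed for enamel formation on chromosome 9 (74017638 to 74190590), was at 41.3 CPM in BLU and 0.352 CPM in BLU-A, 117-fold lower (63.9 to 267). It was at 3.15 CPM in untreated cells and under 1 CPM in BLA and BLA-A. Ecel1, a neuronal endopeptidase-like gene on chromosome 1, had 29.9 CPM in BLU and 2 counts in BLU-A, with a ratio of 396 (109 to 3270). Cimap1d, on chromosome 10, had 22.4 CPM in BLU and 0 counts in BLU-A, at least 198-fold lower. The unplaced Gm57791 and Gm30618 were at 23.0 and 33.5 CPM in BLU and at or under 0.327 CPM in BLU-A.

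The remaining decreases among the 15 were smaller, at most 4.64-fold. Zfp442, a zinc finger protein gene on chromosome 2, was at 68.4 CPM in BLU and 14.7 CPM in BLU-A, 4.64-fold lower (4.16 to 5.19). Necap1, an adaptor-binding protein of clathrin-coated vesicles, was at 48.3 and 16.1 CPM, 3.00-fold lower (2.69 to 3.36). BLU stood above the other 4 libraries at both genes, with Zfp442 at 8.96 to 17.8 CPM and Necap1 at 10.4 to 17.2 CPM there. Btc, which encodes the EGF receptor ligand betacellulin, was at 23.6 CPM in BLU and 9.86 CPM in BLU-A, 2.39-fold lower (2.07 to 2.77). For Btc the BLU-A library was the lowest, since the untreated, BLA and BLA-A libraries held 13.9, 23.3 and 18.1 CPM. Kalrn, a guanine nucleotide exchange factor gene, was also lowest in BLU-A, at 7.29 CPM against 23.5 CPM in BLU (3.23-fold, 2.75 to 3.81). Magi2, Adcy2, Entpd6 and Gm53858 were 2.65 to 3.06-fold lower in BLU-A. Cntn5 and Dph7 complete the 15 with log2 fold changes of -0.98 and -0.91, which did not pass the threshold.

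**Figure D2:**
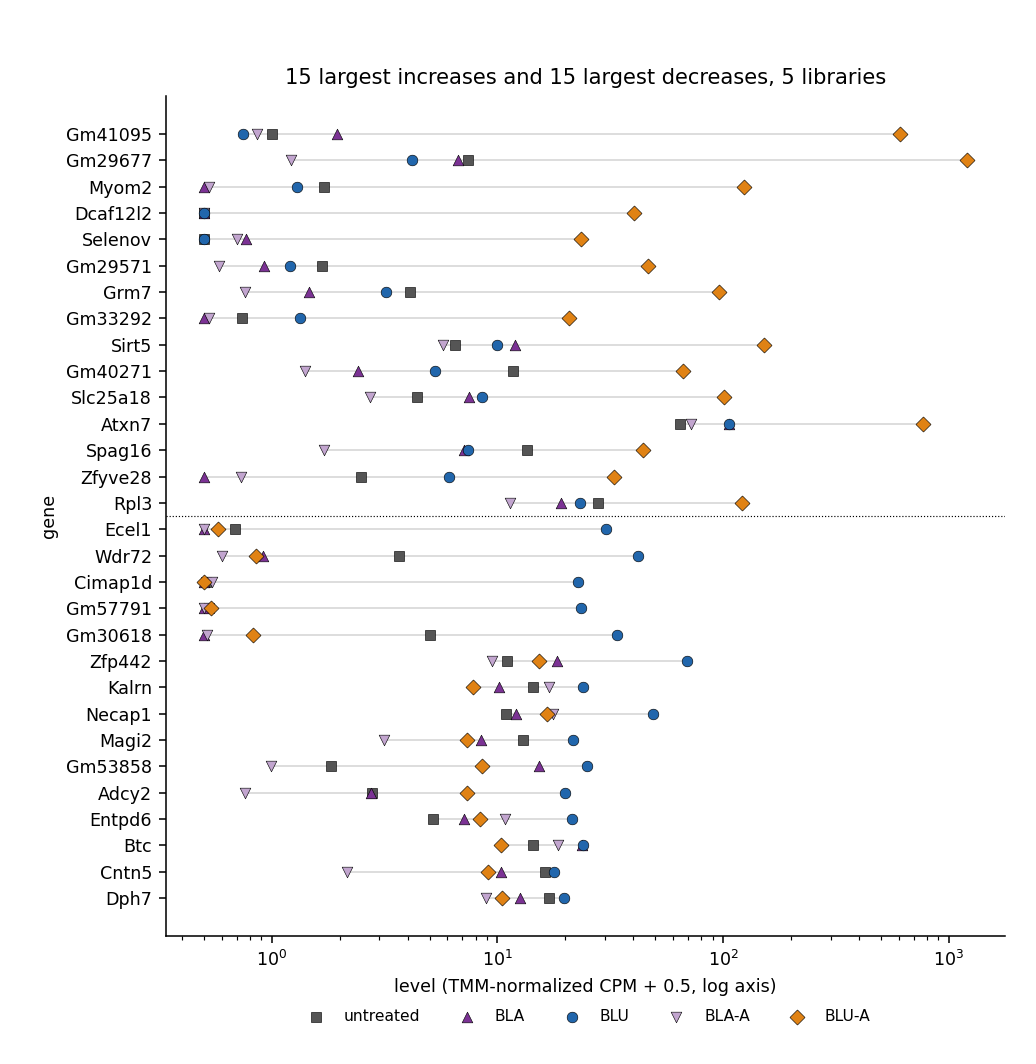
Level in the 5 libraries (x axis, TMM-normalized CPM plus 0.5 on a log scale) of the 15 genes with the largest increases (upper block) and the 15 with the largest decreases (lower block) in BLU-A against BLU, among genes with a mean of at least 10 CPM. In the upper block the BLU-A diamond lies right of every other symbol, and in the first rows of the lower block the BLU circle does.

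This pattern was counted over all genes with at least 10 CPM in some library, 10744 in number. The BLU-A library was above each of the 4 others by a log2 difference over 1 at 29 genes and below each at 2, while BLU was above at 9 and below at 4, untreated cells above at 14 and below at 16, and BLA above at 13 and below at 19. The BLA-A library, which lay farthest from the rest, was above at 665 and below at 260. Of the 34 genes higher in BLU-A at 10 CPM, 19 were above all 4 other libraries in BLU-A and 1 was below all 4 in BLU. Of the 13 lower genes, 8 were above all 4 others in BLU and 0 were below all 4 in BLU-A. The larger changes between the 2 blueberry libraries were thus mostly single genes that were high in 1 of 5 libraries.

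The genes next to these on the chromosome passed the threshold about as often as genes in general. Of the 30 genes with the largest changes, 26 had a position on GRCm39. The 14 placed higher genes had 38 compared neighbours within 100 kb, of which 2 passed the threshold and 0 did so upwards. The 12 placed lower genes had 32 such neighbours, of which 2 passed the threshold and 1 was lower as well. That gene was Clec4a3, beside Necap1, at 4.46 CPM in BLU and 0.390 CPM in BLU-A. Over all genes 6.68% passed the threshold, 2.89% upwards and 3.79% downwards, so these counts are near the general share. By chromosome, the median log2 fold change of genes with a mean of at least 1 CPM ran over the autosomes and the X from -0.08 on chromosome 18 to 0.04 on chromosome 7, with -0.03 on the X. On the mitochondrial genome only 2 genes were placed by symbol, with a median of -0.24. They do not include the 7 mitochondrial-genome protein genes described below, which were all above 0 (median 0.32).

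Replication-dependent histone genes were higher in BLU-A than in BLU as a group, and their BLU-A level was close to that of untreated cells. Of 26 listed genes that were compared, 25 were higher in BLU-A. Among the 26, 6 passed a log2 fold change of 1 and 0 passed -1, beside 2.89% and 3.79% of all genes. The list's median was 0.67, with quartiles of 0.40 and 0.94, beside -0.02 over all genes. H2bc8 was at 24.9 CPM in BLU and 64.8 CPM in BLU-A, 2.60-fold higher (2.38 to 2.85), and at 63.0 CPM in untreated cells. H3c2 was at 3.42 and 13.7 CPM (3.99-fold, 3.18 to 5.08) and at 12.7 CPM in untreated cells. H2ac20, a histone H2A gene of the small cluster on chromosome 3, was at 52.2 and 106.9 CPM (2.05-fold, 1.92 to 2.18) and at 120.3 CPM in untreated cells. The untreated level of 25 of the 26 genes was nearer to BLU-A than to BLU.

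More abundant histone genes moved the same way by less. H4c4, the histone H4 gene with the highest level, was at 794.7 CPM in BLU and 1310 CPM in BLU-A, 1.65-fold higher (1.62 to 1.68). The linker histone genes H1f2, H1f3, H1f4 and H1f5 had log2 fold changes of 0.45, 0.66, 0.30 and 0.63. H1f0, a linker histone gene whose expression does not depend on replication though the list counts it, was at 0.38. H3c13 was the exception, at 34.7 CPM in both libraries. Many histone genes have near-identical copies and only reads with a mapping quality of at least 10 were counted, so the level of a single copy is uncertain. H3c4 and H3c8, which the list left out, had log2 fold changes of 1.22 and 1.79.

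**Figure D3:**
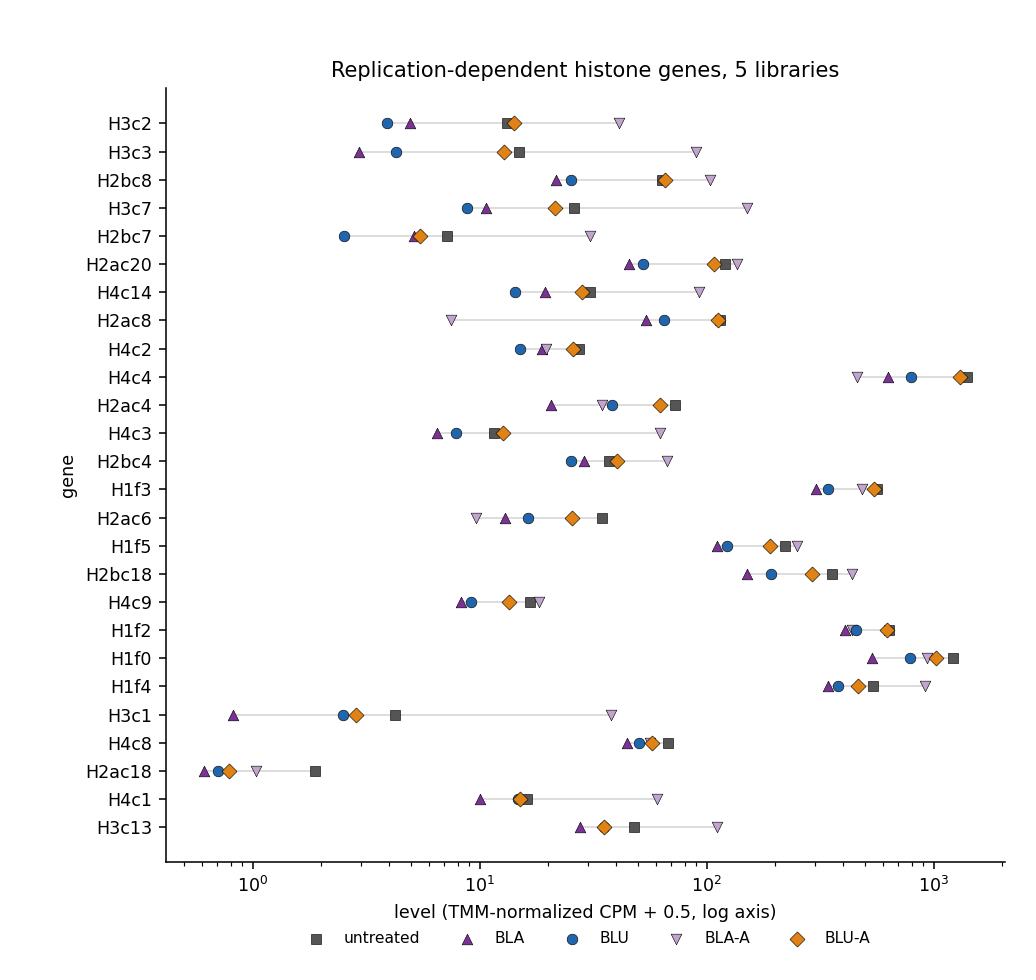
Level of the 26 compared replication-dependent histone genes in the 5 libraries (x axis, TMM-normalized CPM plus 0.5 on a log scale), ordered by the log2 fold change of BLU-A against BLU. BLU-A diamonds lie beside the squares of untreated cells for most genes, and BLU circles lie to their left with the BLA triangles.

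A histone set was also drawn from sequence alone, without the list. The stem-loop that ends replication-dependent histone mRNA is bound by the stem-loop binding protein in place of poly(A) binding protein. It was searched within 100 bases of the end of each GENCODE M39 transcript, and 22 genes held it, of which Gm44648 alone has no histone symbol. Of these, 19 were compared and 18 were higher in BLU-A, with a median log2 fold change of 0.71. Among the 19, 4 passed 1 and 0 passed -1, beside 2.89% and 3.79% of all genes. Their summed level was 196.2 CPM in BLU, 316.2 CPM in BLU-A and 359.0 CPM in untreated cells. The list names 8 of the 22 as well, so the counts share members. The stem-loops of 5 of them are given with the 7 bases on each side. Capitals mark the stem-loop, a 6-base stem around a 4-base loop, from which H3c3 departs in the loop and H4c2 in the stem. Positions are those of the gene on GRCm39.
H3c2, chromosome 13, 23936250 to 23936869: acccaaaGGCTCTTTTCAGAGCCacccaca
H2bc7, chromosome 13, 23757910 to 23758370: acccaaaGGCTCTTTTCAGAGCCacctacc
H3c3, chromosome 13, 23928956 to 23929585: aaaaaaaGGCTCTTTTAAGAGCCacctaag
H2ac4, chromosome 13, 23935109 to 23935581: aaacaaaGGCTCTTTTCAGAGCCacccaca
H4c2, chromosome 13, 23940996 to 23941392: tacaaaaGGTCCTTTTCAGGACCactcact

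H3c2, H2bc7 and H3c3 were past a log2 fold change of 1, at 1.85, 1.12 and 1.58. H2ac4 was at 37.7 CPM in BLU and 61.7 CPM in BLU-A, a log2 fold change of 0.71, and H4c2 was at 14.6 and 25.2 CPM, or 0.77. Among these 5 genes the log2 fold change thus ran from 0.71 to 1.85.

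Histone promoters share a few short motifs, so the promoters of 36 genes of the list or the stem-loop set were searched in the RefSeq promoter set (GRCm38.p6), in the 250 bases before the start, on both strands. The octamer (ATGCAAAT, or ATTTGCAT on the other strand), a site type of OCT1 in H2B promoters, was in 9 of 36 and in 1.6% of 32851 promoters. CCAAT was in 29 of 36 (80.6%) and in 33.8% of all, and TATAAA in 19 of 36 (52.8%) and in 12.4%. The 3 motifs do not overlap in their letters. For 2 genes past the threshold the 150 bases before the start are printed, with these motifs in either orientation in capitals. H2bc8 holds all 3 and H3c2 holds CCAAT at 2 places and TATAAA.
H2bc8, chr13:23571250-23571399, plus strand: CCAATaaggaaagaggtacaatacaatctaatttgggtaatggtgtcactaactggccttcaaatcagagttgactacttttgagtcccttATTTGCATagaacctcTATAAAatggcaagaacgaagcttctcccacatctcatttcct
H3c2, chr13:23752195-23752344, plus strand: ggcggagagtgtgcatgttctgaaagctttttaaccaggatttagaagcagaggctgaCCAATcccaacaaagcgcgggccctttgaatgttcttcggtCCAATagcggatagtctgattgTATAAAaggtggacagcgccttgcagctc

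Histone genes are short, and short genes as a class were higher in BLU-A. Among genes with a mean of at least 10 CPM, the median log2 fold change was 0.44 for genes up to 1 kb, 0.20 from 1 to 3 kb, 0.15 from 3 to 10 kb and 0.07 from 10 to 30 kb. It was -0.05 from 30 to 100 kb, -0.17 from 100 to 300 kb and -0.25 above 300 kb. The share of genes above 0 fell from 78.2% in the shortest class to 14.9% in the longest. The reads were counted over whole genes, introns included, so a long gene's count holds intronic reads as well as exonic ones. At a mean of at least 1 CPM the medians ran from 0.32 to -0.25, and without histone genes the shortest class was at 0.25.

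**Figure D4:**
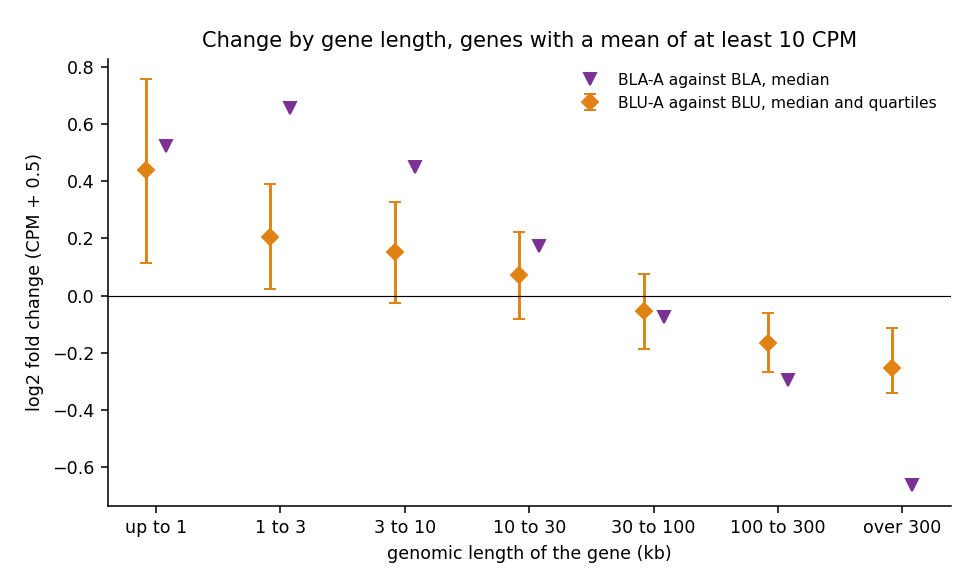
Log2 fold change by genomic gene length for genes with a mean of at least 10 CPM. Diamonds and bars give the median and quartiles of BLU-A against BLU, which fall from 0.44 to -0.25, and triangles give the median of BLA-A against BLA in the same classes.

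Genes at both ends of the length range were past the threshold more often than the 0.484% of all genes at 10 CPM, a comparison without a test. Up to 1 kb 7 of 55 genes were higher and 0 lower (12.7%), and above 300 kb 4 of 248 were higher and 3 lower (2.82%). Of the 29 listed genes that span fragile sites or are long neuronal genes, 21 were lower in BLU-A, with a median log2 fold change of -0.30, 0 passed 1 and 2 passed -1. Magi2, a synaptic scaffold gene of 1480 kb, was at 21.0 CPM in BLU and 6.87 CPM in BLU-A (3.06-fold, 2.59 to 3.64). Ptprd, a receptor phosphatase gene, was at 5.65 and 2.35 CPM. The abundant members Wwox, Maml3 and Exoc4 had log2 fold changes of -0.26, -0.32 and -0.18, while Naaladl2 and Cntnap2 were at 0.38 and 0.12.

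Among genes with a mean of at least 100 CPM, the largest increases after Gm41095, Gm29677 and Atxn7 were modest. Rps20, of the small ribosomal subunit, was at 158.6 CPM in BLU and 276.8 CPM in BLU-A, 1.74-fold higher (1.68 to 1.81). Tpt1, the translationally controlled tumor protein, was at 204.4 and 351.1 CPM (1.72-fold, 1.66 to 1.78), and Rpph1, the RNA subunit of RNase P, at 789.7 and 1271 CPM (1.61-fold, 1.58 to 1.64). For Rps20 and Tpt1 the untreated level, 274.5 and 343.8 CPM, was nearer to BLU-A than to BLU. The largest decreases were those of Gm34568, Ube2e2, Gm36876, Msantd2, Plekha5, Lims1, Ghr and Nr6a1, from 1.41 to 1.54-fold. Ube2e2, a ubiquitin-conjugating enzyme gene of 321 kb, was at 191.4 and 126.4 CPM, and Ghr, the growth hormone receptor, at 660.8 and 466.7 CPM. Both were lower still in untreated cells, at 72.4 and 304.1 CPM.

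The genes with the highest counts differed little. The lncRNA gene Gm26917, which took 4.55% of the counts in BLU and 5.28% in BLU-A, was 1.15-fold higher in BLU-A. Eef1a1, the translation elongation factor, was 1.19-fold higher, Actb 1.24-fold higher and the mitochondrial COX1 1.32-fold higher. Ahnak was 1.17-fold lower, and the fibronectin gene Fn1 was at 4403 CPM in BLU and 4377 CPM in BLU-A.

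Genes of mitochondrial and protein synthesis machinery were mostly a little higher in BLU-A. All 7 of the mitochondrial-genome protein genes that were compared were above 0, from 0.18 for ND6 to 0.44 for ND2, and 0 passed the threshold. Of 60 cytosolic ribosomal protein genes, 50 were above 0 with a median of 0.17, and only Rpl3 and Rpl26 passed 1, Rpl26 at 9.73 CPM in BLU and 20.2 CPM in BLU-A. Rpl4, the most abundant, was at 1452 and 1694 CPM. Of 33 nuclear respiratory chain genes, 25 were above 0 (median 0.15), as were 23 of 27 proteasome subunits (median 0.15), with 0 of either past the threshold. Over all genes 47.6% were above 0 and 6.68% passed the threshold, 0.484% at 10 CPM. Among genes of 3 to 10 kb at 10 CPM, however, 72.1% were above 0, with a median of 0.15. List medians here and below were not adjusted for gene length, so a list's lean cannot be told apart from the length trend.

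Oxidative stress genes leaned towards BLU-A and the metallothioneins Mt1 and Mt2 towards BLU. Of 32 NRF2 targets and glutathione and thioredoxin enzymes, 23 were above 0 (median 0.16), and Blvrb, the biliverdin reductase, alone passed 1, at 3.51 CPM in BLU and 7.61 CPM in BLU-A. The ferritin heavy chain gene Fth1 was at 1040 and 1306 CPM and Nfe2l2, which encodes NRF2, at 212.5 and 247.2 CPM. Hmox1 and Nqo1, the genes most used to read NRF2 activity, were at 3.91 and 4.93 CPM and at 10.2 and 12.8 CPM. The metallothionein genes Mt1 and Mt2, which metals induce, were lower in BLU-A, at 43.3 against 70.3 CPM and at 8.74 against 16.1 CPM, log2 fold changes of -0.69 and -0.84. These last 4 genes were chosen after their values were seen. Of 18 metallothionein and zinc transporter genes, 8 were above 0 (median -0.08), 0 passed 1, and Slc39a8, a zinc and manganese importer, passed -1 at 4.52 and 1.43 CPM. The share past the threshold was 6.68% over all genes and 0.484% at 10 CPM.

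Of 40 genes of the unfolded protein and integrated stress responses, 29 were above 0 (median 0.13) and 2 passed 1. Sdf2l1, a chaperone cofactor of the endoplasmic reticulum, was at 1.09 CPM in BLU and 6.802 CPM in BLU-A, 6.25-fold higher (4.22 to 9.51), against 3.39 CPM in untreated cells. Stc2 was at 1.77 and 4.19 CPM. The chaperone Hspa5 (BiP), at 1911 and 2132 CPM, and Atf4, at 235.6 and 240.5 CPM, differed by a log2 fold change of 0.16 and 0.03. Of 19 cytosolic heat shock genes, Hspb1 passed 1 with a log2 fold change of 1.01 from 0.594 CPM, and the median was 0.07. Beside these counts, 6.68% of all genes passed the threshold, and 0.484% at 10 CPM.

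None of the 35 listed genes of clathrin, caveolin and endosome uptake and none of 46 lysosome and autophagy genes passed the threshold, with medians of 0.06 and 0.02. Of these, 34 and 43 had a mean of at least 10 CPM, where 0.484% of all genes passed, so a count of 0 is near the general share. Necap1, given above, is not in either list. Cltc, the clathrin heavy chain, was at 497.5 CPM in BLU and 466.9 CPM in BLU-A, and Ctsl, a lysosomal protease, at 758.1 and 837.8 CPM. The 17 iron and ferroptosis genes had a median of 0.01 with 0 past the threshold, and Tfrc, the transferrin receptor, was at 327.3 and 272.9 CPM.

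None of 37 genes of the Bcl2 family, caspases and death receptors, 24 p53 targets, 34 mitotic genes, 37 replication and G1/S genes or 35 DNA repair genes was beyond it. At a mean of at least 10 CPM, which 30, 20, 34, 36 and 32 of them had, 0.484% of all genes passed, so these counts of 0 are near the general share. Their medians were 0.09, -0.01, -0.01, 0.14 and -0.04. Mki67 was at 1841 CPM in BLU and 1780 CPM in BLU-A and Mcm6, of the replicative helicase, at 297.1 and 328.2 CPM.

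Of the 24 AP-1 and immediate early genes, 20 were above 0 (median 0.23) and 0 passed the threshold. Over all genes 6.68% passed, and 0.484% of those at 10 CPM, so this count and the counts of 0 that follow are near the general share. Egr1 was at 169.4 CPM in BLU and 207.8 CPM in BLU-A, Jun at 258.6 and 307.0 CPM and Myc at 200.6 and 191.0 CPM. The 21 ERK output genes and 18 YAP and TEAD targets had medians of 0.02 and -0.08 with 0 past the threshold. Most of the 16 TGF-β signaling genes were named by the study from these libraries, so their direction is no independent evidence. Of the 16, 14 were below 0 (median -0.18) and 0 passed the threshold. All genes of 100 to 300 kb at 10 CPM had a median of -0.17. Smad3 was at 663.7 and 580.8 CPM and Tgfbr2 at 201.0 and 177.3 CPM. Both lie above their untreated levels, 417.0 and 153.5 CPM. Of 15 oncogenic kinase genes, most of them named by the study, Pik3cg passed -1, at 0.993 CPM in BLU and 0.151 CPM in BLU-A. Akt1, Mtor and Jak2 differed by 0.18 or less.

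Inflammatory genes passed the threshold only at low levels. Of 24 colony-stimulating factor, chemokine and cytokine genes, Il1b passed 1, from 0.472 to 1.47 CPM, while Ccl20 and Cxcl2 passed -1, from 2.60 to 0.717 and from 1.57 to 0.440 CPM. The last 2 are also the only members past the threshold among 24 NF-κB genes. The abundant Cxcl1, Csf1 and Ptgs2 were at log2 fold changes of -0.21, 0.04 and -0.22. None of 29 interferon-stimulated genes (median 0.15) or 17 MHC class I and checkpoint genes (median -0.02) passed the threshold. Of these, 13 and 13 had a mean of at least 10 CPM, where 0.484% of all genes passed, so a count of 0 is near the general share. At any level 6.68% of all genes passed.

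Matrix and adhesion genes past the threshold were 2 of 40 matrix and integrin genes, 2 of 22 matrix protease genes, 4 of 22 cadherins and protocadherins and 0 of 23 EMT factors and epithelial regulators, beside 6.68% of all genes. Col12a1, a fibril-associated collagen, was at 2.15 CPM in BLU and 6.84 CPM in BLU-A, 3.18-fold higher (2.36 to 4.35), and Postn was at 1.69 and 0.264 CPM. Among the proteases, Adamts5 passed 1 and Serpinb2 passed -1, the latter from 1.95 CPM to 0 counts. Among the cadherins, Cdh6, Cdh8, Cdh10 and Cdh11 passed 1, with Cdh6 at 0.266 CPM in BLU and 10.7 CPM in BLU-A. The main epithelial cadherin, Cdh1, was at 135.0 and 125.7 CPM. Vim was at 3351 and 3471 CPM.

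Other lists had medians within 0.2 of 0. Beside the counts that follow, 6.68% of all genes passed the threshold, and 0.484% at 10 CPM. In 36 sterol and fatty acid synthesis genes, 28 were above 0 (median 0.19), and the sterol exporter Abcg1 passed 1 at 4.10 and 9.24 CPM. It was also the only one of 21 ABC transporters (median 0.08) to pass. Ankrd37 and Slc16a3 passed 1 among 32 glycolysis and hypoxia genes (median -0.05), both from under 1 CPM. Tpm2 passed -1 among 27 actin genes (median -0.02), Dkk3 among 29 Wnt and Notch genes (median -0.09), and S100a13 passed 1 among 14 S100 and annexin genes (median 0.13), at 9.61 and 20.4 CPM. Among 20 nuclear noncoding RNA and snoRNA host genes (median -0.01), Meg3 passed 1, from 0.024 to 14.3 CPM, as did Snhg12 at 2.24 and 5.03 CPM. The abundant nuclear RNAs Malat1 and Neat1 were at -0.45 and -0.24. The 19 circadian clock genes, 30 splicing factors, 22 ribosome biogenesis genes, 8 genes of the aryl hydrocarbon receptor and 11 genes the study names for blueberry had 0 past the threshold and medians from -0.15 to 0.14. The last 11 were picked by the study from these libraries, so their direction is no independent evidence.

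**Figure D5:**
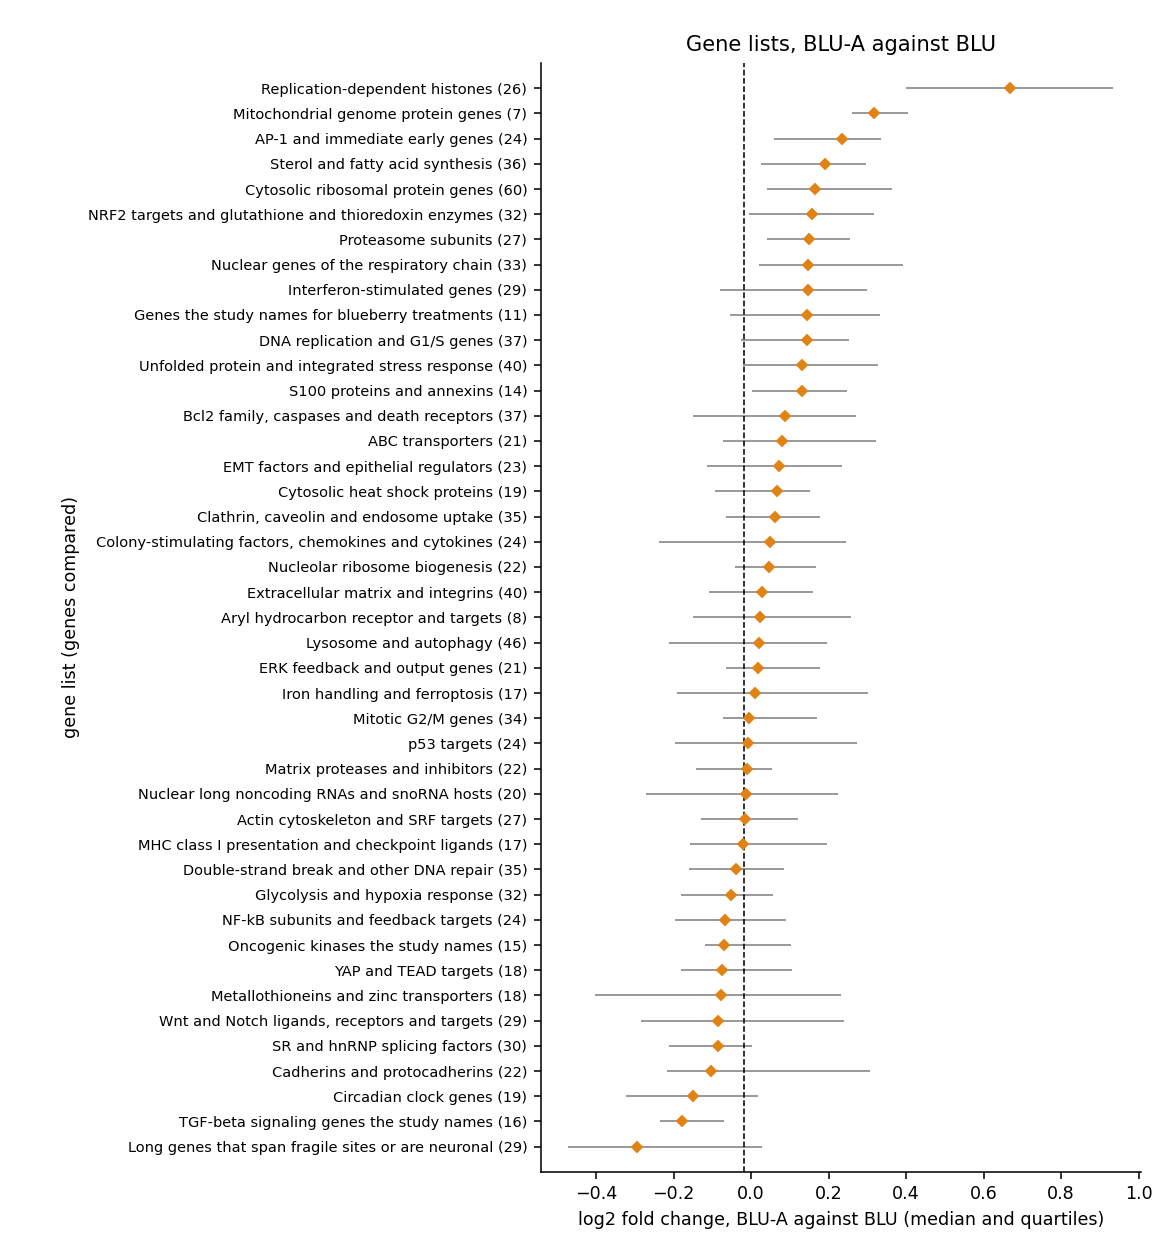
Median (diamond) and quartiles (bar) of the log2 fold change in BLU-A against BLU for 43 gene lists, with the number of genes compared in brackets; the dashed line is the median of all 17594 genes, -0.02. The replication-dependent histones stand rightmost at 0.67 and the long genes leftmost at -0.30.

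The other nanoparticle pair, BLA-A against BLA, shares no library with the blueberry pair and shows what the same kind of change of form gave with blackberry. That pair differed far more, with 4315 of 17594 genes past the threshold (24.5%), 2033 higher (11.6%) and 2282 lower (13.0%). Of the 508 genes higher in BLU-A, 75 were higher in BLA-A too (14.8% of the 508 and 3.69% of the 2033), and 103 were lower. Of the 667 lower genes, 151 were lower in BLA-A (22.6% of the 667 and 6.62% of the 2282) and 46 were higher. Across genes, which are not replicates and share length and composition in both pairs, the correlation of the log2 fold changes was 0.13 (Pearson) and 0.18 (Spearman) over 17594 genes, and 0.20 and 0.32 over the 9715 genes at 10 CPM.

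Genes that passed the threshold in the same direction in both pairs included histone genes and long genes. The 10 with the largest smaller change upwards, at a mean of at least 5 CPM over the 4 libraries, included Sdf2l1, H3c2, H3c8, H3c3, Col12a1, H2bc8, H3c7, H3c4 and Gchfr, of which 6 are histone genes. H3c7 was at 8.34 and 21.1 CPM in BLU and BLU-A and at 10.2 and 150.9 CPM in BLA and BLA-A. The 10 downwards were Robo2, Gm53858, Adcy2, Cabyr, Magi2, Pram1, 2610035D17Rik, Gm33821, Gpr183 and Gm52529. Robo2, an axon guidance receptor gene of 1560 kb, was at 12.2 and 3.48 CPM in the blueberry pair and at 10.7 and 0.892 CPM in the blackberry pair. At 10 CPM the blackberry medians by gene length were 0.53 up to 1 kb, 0.66 from 1 to 3 kb and 0.45 from 3 to 10 kb, and fell to -0.67 above 300 kb, so the highest class was the second shortest there and the shortest in the blueberry pair. Within the histone list, however, H2ac8, H2ac6 and H4c4 were higher in BLU-A and lower in BLA-A, with H2ac8 at 53.3 CPM in BLA and 6.99 CPM in BLA-A.

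The level in untreated cells was set beside both blueberry libraries. Of the genes lower in BLU-A at a mean of at least 1 CPM, untreated cells were nearer BLU-A at 221 of 350, and of the higher genes at 125 of 271. At 10 CPM the numbers were 11 of 13 and 11 of 34. Over all 17594 genes, whatever their change, untreated cells were nearer BLU-A at 62.4%, and over the 9715 at 10 CPM at 68.5%. Beside these shares, BLU-A was nearer to untreated cells than BLU was at 34 of 40 stress response genes, 29 of 37 replication genes, 47 of 60 ribosomal protein genes, 14 of 16 TGF-β genes and 25 of 26 histone genes. It was nearer at 11 of 24 p53 targets and 9 of 22 matrix protease genes. Most of the TGF-β genes were named by the study from these libraries, so their count is no independent evidence. The correlation of log2 levels over 15250 genes at 1 CPM, as a description, was 0.977 between BLU-A and untreated cells, 0.976 between BLU-A and BLU, 0.969 with BLA and 0.941 with BLA-A.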

How the data were processed

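The authors removed ribosomal RNA, aligned reads to GRCm39 (RefSeq) with STAR and counted them over whole genes by strand in OmicsBox 3.4.6, with a mapping quality of at least 10. The deposited table holds raw counts for 40402 genes in 15 columns, 3 per condition. The labels list these as 3 samples, but the study's sequencing report gives them as subsets of the reads of 1 library, so they were averaged. Tables of the authors' own comparisons (fold changes, p-values and enrichment scores) were not used. The submitters' processing notes also name DESeq2 1.36.0.

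Genes that reached 1 CPM in any of the 5 libraries were kept. TMM factors over the 5 libraries came from edgeR 4.0.16 in R 4.3.3, and the log2 ratio of CPM plus 0.5 was taken without a test. Intervals are 95% conditional binomial intervals of the ratio of 2 counts. A floor of 3 counts, 0.109 CPM in BLU and 0.113 CPM in BLU-A, stands in for 0. Python 3.11.15, numpy 2.4.6, pandas 2.3.3 and scipy 1.17.1 were used, and the calculation was tested on simulated data. Gene positions are from GENCODE M39, matched by symbol for 16308 of the 17594 genes (92.7%).

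Named genes are the 15 with the largest change in each direction at a mean of at least 10 CPM, 8 in each direction at 100 CPM, 10 in each direction ranked by the smaller change over both nanoparticle pairs at 5 CPM, members of 43 gene lists past the threshold at 1 CPM with the 6 most abundant of each list, and the 5 most counted genes of BLU and of BLU-A, which come to 6 genes. List members past the threshold but under 1 CPM (Cdh10, Cdh11, Il1b, Postn, Adamts5, Serpinb2, Pik3cg and Dkk3) and Clec4a3 were named after their values were seen. The histone genes H1f5, H3c13, H2ac4, H4c2, H2ac6 and H2ac8 were also named outside this rule. Members and lists were chosen with earlier results of these data known. Alternatives covered normalization (DESeq2 1.42.0 size factors, total counts, upper quartile, TMM on 2 libraries), filters, pseudocounts of 0.1 and 2 CPM, and leaving out columns or abundant genes.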

Additional observations from a re-analysis of the deposited data

Results flagged for a closer look

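The nanoparticle libraries lay on opposite sides of their extracts at 9 of the genes the naming rule gave, past 1 on the log2 scale in both pairs, which is what singled these genes out. The difference between the pairs was not tested, since each condition has 1 library. Gm41095 was at 9.68 in BLU-A against BLU and -1.18 in BLA-A against BLA, and Gm29677 was at 8.17 and -2.45. Sirt5 was at 3.93 and -1.07, Slc25a18 at 3.58 and -1.46, and Spag16 at 2.57 and -2.06. In the blackberry pair these 5 genes lay between 0.36 and 11.5 CPM, with Gm41095 at 1.44 CPM in BLA and 0.36 CPM in BLA-A. The other 4, all members of gene lists, had lower levels. Cdh6 was at 3.86 and -1.27, Rpl26 at 1.02 and -1.25, Slc16a3 at 1.02 and -1.21, and Cxcl2 at -1.14 and 1.73. Of these, Rpl26 alone had a mean of at least 10 CPM over BLU and BLU-A.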

How the results depend on the processing

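The 1175 genes past the threshold (508 higher, 667 lower) became 1802 (777 and 1025) without a filter beyond 1 count and 47 (34 and 13) at a mean of 10 CPM. They became 2085 (928 and 1157) with a pseudocount of 0.1 CPM, 137 (80 and 57) with 2 CPM, and 771 (365 and 406) where the whole counting interval had to lie beyond 1. The higher share of these genes was 43.2%, and 72.3% at 10 CPM. The 226 genes past the threshold in the same direction in both pairs became 11 at 10 CPM over the 4 libraries, 633 with 0.1 CPM and 20 with 2 CPM. The other scalings, the filter of 1 CPM in BLU or BLU-A and leaving out the 10 most abundant and the mitochondrial genes kept each count that was computed within 1.5 times, and the median over all genes moved by at most 0.02 under total counts, median of ratios or upper quartile scaling. Leaving out a replicate column gave 1184 to 1201 genes, 508 to 517 higher, 669 to 684 lower and 231 to 235 in both pairs, which shows nothing about replication because the columns are subsets of 1 library. Of 654 values recomputed for 66 named genes, 38 moved beyond the counting interval, 25 of them with 2 CPM. Sign changes were counted only for the named genes past the threshold, and 0 were found. Named genes with a change near 0, such as Fn1, were not covered by that count. All 129 recomputed list medians stayed within 0.1, and 9 of them, none over 0.02 in size, changed sign. No paired analysis was possible because each condition has 1 library, so the column numbers pair nothing. Depth limits genes near 1 CPM most.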

Other observations

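By gene class, BLU-A and BLU differed by over 1 on the log2 scale at 4.82% of 13613 protein-coding genes and at 13.1% of 2497 lncRNA genes. The classes also differ in level, and weakly expressed genes passed more often, 23.6% of those under 1 CPM. A mean of at least 10 CPM was reached by 8849 protein-coding and 550 lncRNA genes. Of these, 25 protein-coding and 6 lncRNA genes were higher, and 10 protein-coding and 0 lncRNA genes were lower. Small structured RNAs are partly lost in library preparation. Of 49 small RNA genes compared, 8 were higher and 4 lower (24.5%), beside 6.68% of all genes, and 5 had a mean of at least 10 CPM. Rn7sk, the 7SK RNA that restrains transcription elongation, was at 58.7 CPM in BLU and 93.7 CPM in BLU-A, and at 3471 CPM in BLA-A.

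Cimap1d, which had 22.4 CPM in BLU and 0 counts in BLU-A, lies within 100 kb of Shc2, whose level was 1319 CPM in untreated cells, 0.121 CPM in BLU and 0 in BLU-A. The 2 neighbours thus had high counts in different single libraries. Shc2 and Rn7sk were chosen after their values were seen.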
